A study of Mus musculus with 6 samples.

Results

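Schlafen mRNAs were less abundant in heme-exposed mouse bone marrow–derived macrophages (BMDMs) than in control BMDMs. The family was taken as 7 genes by name, Slfn1, Slfn2, Slfn3, Slfn4, Slfn5, Slfn8 and Slfn9, of 25700 genes counted by bulk RNA-Seq. In heme-treated BMDMs, Slfn5 and Slfn8 stood at 12% and 11.8% of their control level and Slfn9 at 26.2%. Slfn2 and Slfn3 stood at 57.5% and 60.3%, and Slfn1 and Slfn4 were barely detected in either group. No member was called higher with heme.

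The comparison was between 3 heme-treated and 3 control cultures, each with cells of 1 mouse. Bone marrow of C57BL/6J mice aged 8 to 10 weeks was differentiated with M-CSF (100 ng/ml) in all cultures. The heme group received 300 μM heme-albumin on day 3 and the control group albumin alone, and RNA was collected on day 7. The study used these cultures to ask whether heme alone gives BMDMs the phenotype of tumor-associated macrophages from hemorrhagic tissue. BMDMs are cells matured in vitro with a growth factor and lack the signals of a tissue. The libraries held 27201038 to 32994595 counts. The 20 most abundant genes took 24.6% to 26.7% of the counts in heme libraries and 17.4% to 19.3% in control libraries. Levels are given as TMM-normalized CPM, that is counts relative to the scaled total of each library. Genes were called changed where the Benjamini-Hochberg adjusted p of edgeR's quasi-likelihood test was under 0.05 among the 12433 genes that passed its filter on low counts. Log2 fold changes are heme over control.

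Schlafen genes take their name from the German word for sleep, after the growth arrest that early members cause in developing T cells. Many of them are induced by type I interferon, and all share an N-terminal core domain. Slfn1 and Slfn2 encode short proteins that consist of little more than this core, Slfn3 and Slfn4 encode intermediate ones, and Slfn5, Slfn8 and Slfn9 encode long ones with a helicase-like C-terminal part. Human members of the long class cleave transfer RNA or block the replication of viruses, and mouse Slfn2 shields transfer RNAs from cleavage during oxidative stress in T cells. The coding sequences in the annotation had 337 and 378 codons for Slfn1 and Slfn2, 640 and 602 for Slfn3 and Slfn4, 884 for Slfn5, and 910 each for Slfn8 and Slfn9.

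All 7 members lie in 1 cluster on chromosome 11 of GRCm38. On the plus strand are Slfn5 (ENSMUSG00000054404, 82951349 to 82964840), Slfn2 (ENSMUSG00000072620, 83065112 to 83070678), Slfn1 (ENSMUSG00000078763, 83116849 to 83122670), Slfn4 (ENSMUSG00000000204, 83175186 to 83190216) and Slfn3 (ENSMUSG00000018986, 83191330 to 83215154). On the minus strand, between Slfn5 and Slfn2, are Slfn9 (ENSMUSG00000069793, 82978390 to 82991830) and Slfn8 (ENSMUSG00000035208, 83002158 to 83020810). RefSeq (GRCm38.p6) gave a promoter window, from 250 bases before to 50 bases after the start of transcription, for each of the 7. For Slfn8 it gave 2 windows, and only the one nearest the GENCODE start of the gene is described. The RefSeq start of Slfn5 lies inside the span that GENCODE gives this gene. The windows were searched on both strands for GAAA repeated after 2 bases of any kind, a core of the interferon-stimulated response element (ISRE), and for CAGGAAGT, a core bound by ETS factors such as PU.1 of macrophages. The long genes Slfn5, Slfn8 and Slfn9 held the ISRE letters and no ETS letters, and Slfn1, Slfn2, Slfn3 and Slfn4 held the ETS letters and no ISRE letters. Of 32851 mouse promoter windows of the same length, 3.44% held the ISRE letters and 3.33% the ETS letters. These shares are background only, since the motifs were picked with expression values in view. The members are also related in sequence, and Slfn8 and Slfn9 held the same match, TTTCGTTTTC, in windows that are much alike. Their matches are therefore not independent, and an excess over the background was not tested. A match is a description of the sequence and does not show that a factor binds there. Windows of the 5 genes that could be tested are shown for this split, with the matches in capitals. They lie at chr11:82951852-82952151 (plus strand), chr11:83020761-83021060 (minus), chr11:82991781-82992080 (minus), chr11:83064862-83065161 (plus) and chr11:83191080-83191379 (plus), and each is written 5′ to 3′ along its gene.
Slfn5 promoter: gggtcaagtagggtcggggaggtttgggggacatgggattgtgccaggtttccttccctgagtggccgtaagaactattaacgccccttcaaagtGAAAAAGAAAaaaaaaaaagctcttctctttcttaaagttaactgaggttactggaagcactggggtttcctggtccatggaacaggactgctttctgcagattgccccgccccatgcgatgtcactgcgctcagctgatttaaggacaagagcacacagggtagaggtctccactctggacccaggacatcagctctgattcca
Slfn8 promoter: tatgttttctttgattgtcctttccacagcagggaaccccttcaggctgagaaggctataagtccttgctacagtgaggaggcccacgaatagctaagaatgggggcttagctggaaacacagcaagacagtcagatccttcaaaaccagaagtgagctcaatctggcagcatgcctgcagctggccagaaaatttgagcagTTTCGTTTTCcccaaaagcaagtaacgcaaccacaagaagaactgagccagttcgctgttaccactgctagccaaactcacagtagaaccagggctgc
Slfn9 promoter: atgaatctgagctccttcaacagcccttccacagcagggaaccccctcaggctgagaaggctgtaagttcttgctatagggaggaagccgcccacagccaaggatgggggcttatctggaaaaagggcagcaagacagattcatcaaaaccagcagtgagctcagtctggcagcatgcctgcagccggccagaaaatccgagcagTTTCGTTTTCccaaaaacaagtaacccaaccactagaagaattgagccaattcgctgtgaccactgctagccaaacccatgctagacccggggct
Slfn2 promoter: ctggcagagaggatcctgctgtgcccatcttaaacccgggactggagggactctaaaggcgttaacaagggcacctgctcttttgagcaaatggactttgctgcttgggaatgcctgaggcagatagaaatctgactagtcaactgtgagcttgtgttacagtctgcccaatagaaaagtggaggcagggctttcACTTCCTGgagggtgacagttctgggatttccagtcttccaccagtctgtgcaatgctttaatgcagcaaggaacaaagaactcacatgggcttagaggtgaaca
Slfn3 promoter: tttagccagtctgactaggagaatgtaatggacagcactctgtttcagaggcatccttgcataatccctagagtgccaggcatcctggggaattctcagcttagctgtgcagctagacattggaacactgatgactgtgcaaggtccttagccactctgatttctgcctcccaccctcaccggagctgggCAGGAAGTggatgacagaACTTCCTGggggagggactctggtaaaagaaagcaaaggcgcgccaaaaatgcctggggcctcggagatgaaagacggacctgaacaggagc

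The ISRE match began at base -155 from the start in Slfn5, where it runs into a stretch of A, at base -48 in Slfn8 and at base -45 in Slfn9. In Slfn8 and Slfn9 it reads on the opposite strand. The ETS match began at base -55 in Slfn2, -74 in Slfn1 and -73 in Slfn4, and Slfn3 held a pair, at -60 and -42. For TGACNNNGC, a core of the antioxidant response element that NRF2 binds, Slfn3 (base -119) and Slfn5 (base -39) held a match, as did 12.4% of all windows. For TTCNNNGAA, a core of the gamma-activated sequence, no member held a match (8.30% of all windows did), and for TGANTCA, an AP-1 core, only Slfn4 did (base -34, against 7.81% of all windows).

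Slfn5 and Slfn8 had the lowest fold changes of the tested members. Human SLFN5 is a nuclear protein that restrains a herpesvirus. Slfn5 had 22.5, 30.5 and 28.9 CPM in the heme libraries and 195, 184 and 303 CPM in the control libraries. The groups were far apart, and control library 3 stood above the other controls. Its log2 fold change was -3.06 (standard error 0.20, adjusted p = 1.16e-06, edgeR). Slfn8, a long member related to the human transfer RNA nuclease SLFN13, had 4.04, 4.86 and 4.66 CPM in the heme libraries. In the control libraries it had 34.5, 34.6 and 45.9 CPM. Its log2 fold change was -3.09 (standard error 0.14, adjusted p = 1.25e-07, edgeR). Of all tested genes, 0.885% had a lower log2 fold change than Slfn8, and 0.909% a lower one than Slfn5.

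Slfn9, whose coding sequence is close to that of Slfn8, fell as well. It had 9.83, 12.7 and 10.8 CPM in the heme libraries and 57.7, 26.7 and 42.6 CPM in the control libraries. The heme libraries lay close together, while the control libraries spread over 2.16-fold and still lay above all heme libraries. The log2 fold change was -1.94 (standard error 0.25, adjusted p = 9.9e-05, edgeR). Slfn8 and Slfn9 were identical at 92.7% of aligned coding bases. Of the distinct 100-base stretches of their annotated transcripts, 3.39% for Slfn8 and 3.71% for Slfn9 occurred also in another gene's transcripts, mostly in the pseudogene Slfn10-ps. Of the 50-base stretches, 14.6% for Slfn8 and 11.9% for Slfn9 did so. Other members shared 50-base stretches too: 16.0% for Slfn3, 11.3% for Slfn4, 11.1% for Slfn5, 4.27% for Slfn2 and 0.606% for Slfn1. Of the 100-base stretches of Slfn5, 6.40% were shared, mostly with Slfn5os. Slfn3 and Slfn4 were identical at 92.2% of aligned coding bases. The sources used here do not say how reads in such stretches were counted, and Slfn10-ps was not analysed here.

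Slfn2, which keeps T cells and monocytes in a resting state in mice, was the most abundant member per kilobase of exon. It had 114, 156 and 121 CPM in the heme libraries and 201, 226 and 252 CPM in the control libraries. The groups did not overlap, and the highest heme library was library 2. The log2 fold change was -0.80 (standard error 0.12, adjusted p = 0.000377, edgeR). Slfn3, a member studied in regulatory T cells and intestinal epithelium, had 4.92, 5.65 and 4.51 CPM in the heme libraries and 9.56, 5.43 and 10.0 CPM in the control libraries. Control library 2 lay among the heme libraries, so the groups overlapped. The log2 fold change was -0.73 (standard error 0.22, adjusted p = 0.0161, edgeR). This call was lost without heme library 1 (adjusted p = 0.0536, edgeR), heme library 3 (0.0647) or control library 3 (0.0625).

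Slfn1 and Slfn4 were too low for the filter and have no fold change in the main test. Slfn1, the founding member from thymocytes, had 1, 1 and 0 counts in the heme libraries and 10, 17 and 28 counts in the control libraries. The ratio of heme to control was 0.0453, with an exact 95% interval of 0.00535 to 0.171. Slfn4, a gene of immature myeloid cells that declines as macrophages mature in mice, had 4, 2 and 1 counts in the heme libraries and 15, 9 and 18 counts in the control libraries. Its ratio was 0.207 (0.0786 to 0.466). These intervals cover counting error only. For both genes every heme library lay below every control library, but 3 counts in 1 library, the limit that a count of 0 allows, already amount to 0.101 to 0.119 CPM in heme libraries. All other members had at least 120 counts in every library.

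**Figure D1:**
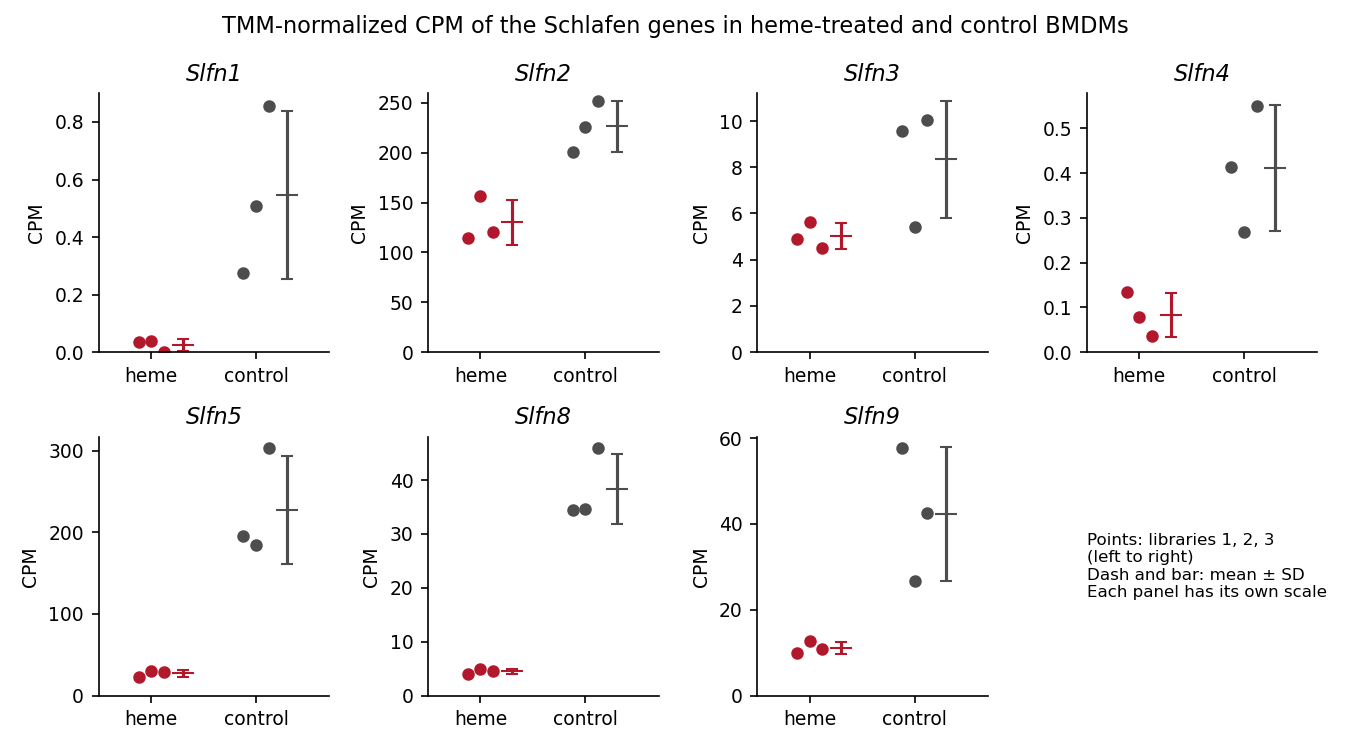
TMM-normalized CPM of the 7 Schlafen genes in 3 heme and 3 control libraries, with a scale of its own and an axis from 0 in each panel. Points are libraries, dashes and bars are means ± SD (n = 3), and only for Slfn3 do points of the groups overlap.

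All 5 members that could be tested were called lower and none higher (edgeR; at an unadjusted p under 0.05, and with DESeq2 and limma-voom, also none higher). Of all 12433 tested genes, 62.5% were called: 30.8% lower (3831 genes) and 31.7% higher (3938 genes). If libraries were scaled by their size alone, 5814 genes were lower and 2580 higher around a median log2 fold change of -0.22, and the 5 members were lower there too. Over 14 alternative settings, the log2 fold change ran from -3.31 to -2.94 for Slfn8, from -3.28 to -2.80 for Slfn5, from -2.19 to -1.65 for Slfn9, from -1.02 to -0.71 for Slfn2 and from -0.97 to -0.58 for Slfn3. In 4 of the 5 tested members the groups did not overlap, against 34.0% of tested genes that were lower with heme in this way. In all 7 members this held for 6, against 26.6% of the 16836 genes with any count. For each of those 6 genes an exact two-sided permutation test gave p = 0.1, the smallest that 3 cultures against 3 allow. For Slfn3 the exact permutation test gave p = 0.2. The summed level of the family was 178 ± 28.2 CPM in heme-treated BMDMs and 544 ± 96.8 CPM in control BMDMs (SD, n = 3), or 32.8% of control (exact permutation test, p = 0.1). In bulk RNA, fewer cells with a transcript and less of it per cell cannot be told apart.

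The makeup of the family's counts differed between the groups. Slfn2 held 73.4%, 74.4% and 71.1% of the family's counts in the heme libraries and 40.3%, 47.3% and 38.5% in the control libraries. Slfn5 held 14.4%, 14.5% and 17.1% in the heme libraries and 39.1%, 38.5% and 46.2% in the control libraries. In heme-treated BMDMs Slfn2 took most of the counts, while in control BMDMs Slfn5 was above Slfn2 in library 3 and below it in the other libraries. Counting error was small beside these gaps: the widest exact 95% binomial interval for Slfn2 ran from 69.8% to 72.4%. Slfn8 held 2.55% ± 0.220 with heme and 7.06% ± 0.164 in controls, and Slfn3 held 2.84% ± 0.279 with heme and 1.53% ± 0.390 in controls (SD, n = 3). The share of Slfn9, at 6.24% ± 0.175 with heme and 7.89% ± 3.22 in controls, differed by less than the spread of the controls (exact permutation test, p = 0.7). For Slfn2, Slfn3, Slfn5 and Slfn8 the exact permutation test gave p = 0.1, and 0.14 after adjustment over the 7 members.

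**Figure D2:**
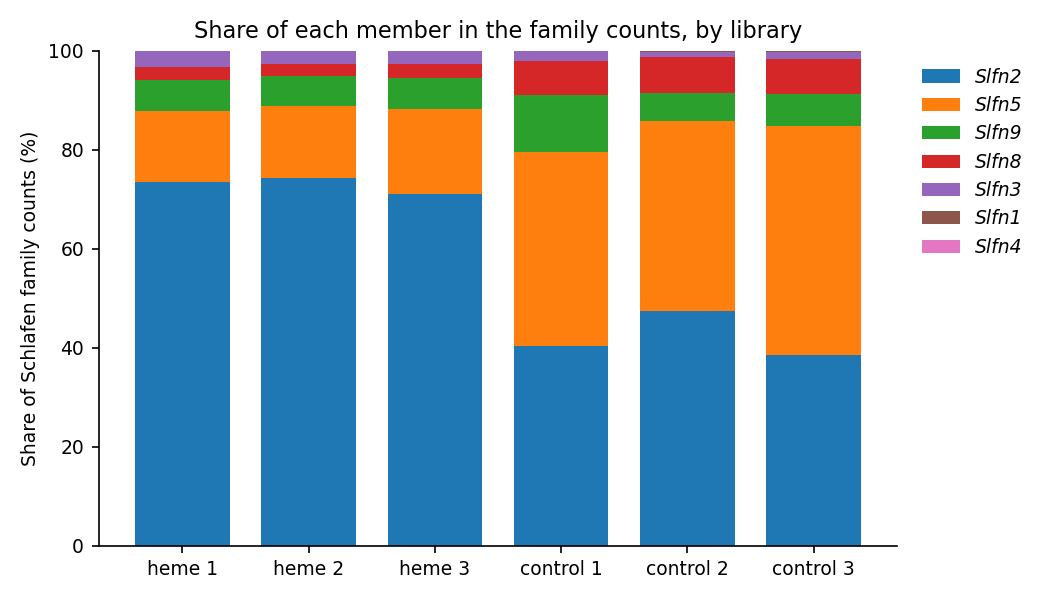
Share of each Schlafen gene in the counts of the 7 genes, in percent, for each heme and control library. Slfn2 (lowest segment) takes 71.1% to 74.4% in heme libraries and 38.5% to 47.3% in control libraries, while Slfn1 and Slfn4 are too small to see.

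Ratios of pairs of members within a library do not depend on the scaling between libraries. Of 10 pairs among the 5 tested members, 8 had ratios that did not overlap between the groups (exact permutation test, p = 0.1 each, 0.125 after adjustment over the pairs). The share of such pairs over all tested genes, of which 62.5% were called, was not determined. The count therefore does not show a trait particular to the family. Slfn2 gained on Slfn5 by 2.23 and on Slfn8 by 2.27 on the log2 scale. Slfn9 gained on Slfn8 by 1.21, as the log2 ratio of Slfn8 to Slfn9 was -1.29 ± 0.09 with heme and -0.09 ± 0.58 in controls (SD, n = 3). The other 2 pairs overlapped between the groups. The log2 ratio of Slfn5 to Slfn8 was 2.59 ± 0.10 with heme and 2.54 ± 0.16 in controls, and that of Slfn2 to Slfn3 was 4.69 ± 0.13 with heme and 4.81 ± 0.51 in controls (SD, n = 3; exact permutation test, p = 0.9 for both), which does not show that they are equal. The 3 members with the ISRE letters in their promoters, Slfn5, Slfn8 and Slfn9, had the lowest fold changes of the 5 tested. This order did not hold over all 7 members: with no filter on low counts, Slfn1 (-4.27) was below Slfn8 (-3.10) and Slfn4 (-2.23) below Slfn9 (-1.95) in log2 fold change, and both hold the ETS letters only. The values of Slfn1 and Slfn4 rest on 2 and 7 counts in all heme libraries. The motifs were picked with expression values in view, and Slfn8 and Slfn9 hold the same match in windows that are much alike. The order of the 5 tested members is therefore a description only, and a link between the letters and the fold changes was not tested.

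Per kilobase of annotated exon, Slfn2 led in both groups, with 78.3 ± 13.6 CPM per kilobase in heme-treated BMDMs and 136 ± 15.3 in control BMDMs (SD, n = 3). Slfn5 followed with 4.32 ± 0.676 in heme-treated BMDMs and 35.9 ± 10.4 in control BMDMs. In heme-treated BMDMs the next levels were 1.86 ± 0.243 for Slfn9, 1.47 ± 0.169 for Slfn3 and 1.10 ± 0.104 for Slfn8. Slfn9 and Slfn3 overlapped in their heme libraries, while Slfn8 lay below both. In control BMDMs the order was Slfn8 (9.37 ± 1.60), Slfn9 (7.10 ± 2.60) and Slfn3 (2.45 ± 0.742), with overlap between Slfn8 and Slfn9. Slfn8 thus took the third place in controls and the fifth with heme. Slfn1 and Slfn4 came last in both groups. Slfn1 had 0.0131 ± 0.0114 with heme and 0.293 ± 0.157 in controls, and Slfn4 had 0.0211 ± 0.0124 with heme and 0.104 ± 0.0356 in controls.

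Overlap with other annotated genes touches Slfn5, Slfn2 and Slfn9. The antisense gene Slfn5os covers 9333 bases of the span of Slfn5, the antisense gene Gm20234 covers 4927 bases of that of Slfn2, and the microRNA gene Mir7679 lies within Slfn9. None of these 3 was analysed here. The libraries were stranded, but the sources used here do not give the strand setting of the counting. The other 2 Schlafen genes with counts were near 0 in every library: Slfn14 had 0, 0 and 1 counts with heme and 1, 1 and 0 in controls, and Slfnl1, which lies on chromosome 4, had 1, 0 and 0 with heme and 0, 2 and 2 in controls.

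Genes that flank the cluster were mixed. Of 8 protein-coding genes within 100 kb of the members on either side, 5 could be tested, of which 1 was called higher and 1 lower. Over all tested genes the shares were 31.7% higher and 30.8% lower. Nle1, a ribosome assembly gene, rose with heme, with 9.46 ± 0.486 CPM in heme-treated BMDMs and 4.76 ± 0.953 CPM in control BMDMs (SD, n = 3; log2 fold change 0.99, adjusted p = 0.000304, edgeR). Rad51d, a DNA repair gene, had a log2 fold change of -0.31 (adjusted p = 0.0249, edgeR), and the call was lost without any heme library or without control library 1 (adjusted p = 0.0547 to 0.0802, edgeR). The log2 fold change was -0.03 for Rffl (adjusted p = 0.837, edgeR) and -0.14 for Ap2b1 (0.0655). Ap2b1, an endocytosis adaptor gene, was called lower if libraries were scaled by size alone (adjusted p = 0.00074, edgeR), by upper quartile (0.0321) or without control library 2 (0.0207).

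**Figure D3:**
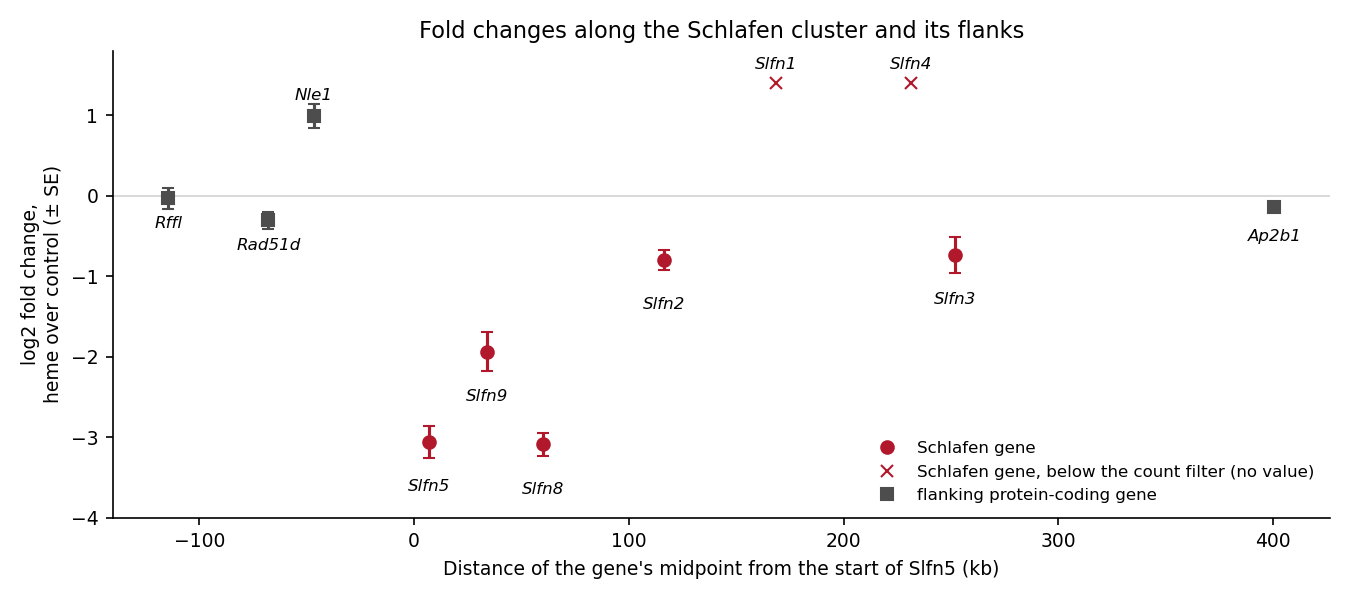
Log2 fold change (heme over control, ± standard error) of the tested Schlafen genes (circles) and 4 flanking protein-coding genes (squares) against the distance of each gene's midpoint from the start of Slfn5 in kb. Crosses at the top mark where Slfn1 and Slfn4 lie, which have no value; the circles lie between -3.09 and -0.73 and the squares between -0.31 and 0.99.

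Other interferon-stimulated genes (ISGs), the broader group to which many Schlafen genes belong, were lower with heme almost throughout. Of a list of 50, 49 could be tested, of which 48 were called lower (98.0%, against 30.8% of all tested genes) and none higher. This list, like the other gene lists, was chosen with earlier results of these data known. The median log2 fold change of the list was -2.31, against 0.00 over all tested genes. The 5 tested Schlafen members had a median of -1.94. Pnpt1, an exoribonuclease gene, was the 1 that did not pass (log2 fold change 0.15, adjusted p = 0.103, edgeR). Of the ISGs, 19 had a lower log2 fold change than Slfn8 and 46 a lower one than Slfn2. The summed level of the list was 687, 714 and 719 CPM in the heme libraries and 2673, 2351 and 3600 CPM in the control libraries. Control library 3 was highest for this sum and also for 6 of the 7 Schlafen members, Slfn9 being the exception. Slfn1 and Slfn4 had only 28 and 18 counts there, and Slfn3 had 10.0 CPM against 9.56 CPM in control library 1. The share of all genes that were highest in control library 3 was not determined.

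The largest changes in the list were those of Rtp4 (log2 fold change -7.72, standard error 0.37), Ifit3b (-6.91, standard error 0.67), Ifit3 (-6.52, standard error 0.48) and Ifi27l2a (-6.25, standard error 0.16). Rtp4, whose product chaperones receptors to the cell surface, had 0.303, 0.237 and 0.183 CPM in the heme libraries and 46.9, 36.7 and 72.4 CPM in the control libraries. Ifit3 encodes a cofactor of a sensor of viral RNA, and Ifit3b is a near copy of it whose reads may be shared. Rtp4 overlaps Masp1 on the opposite strand.

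**Figure D4:**
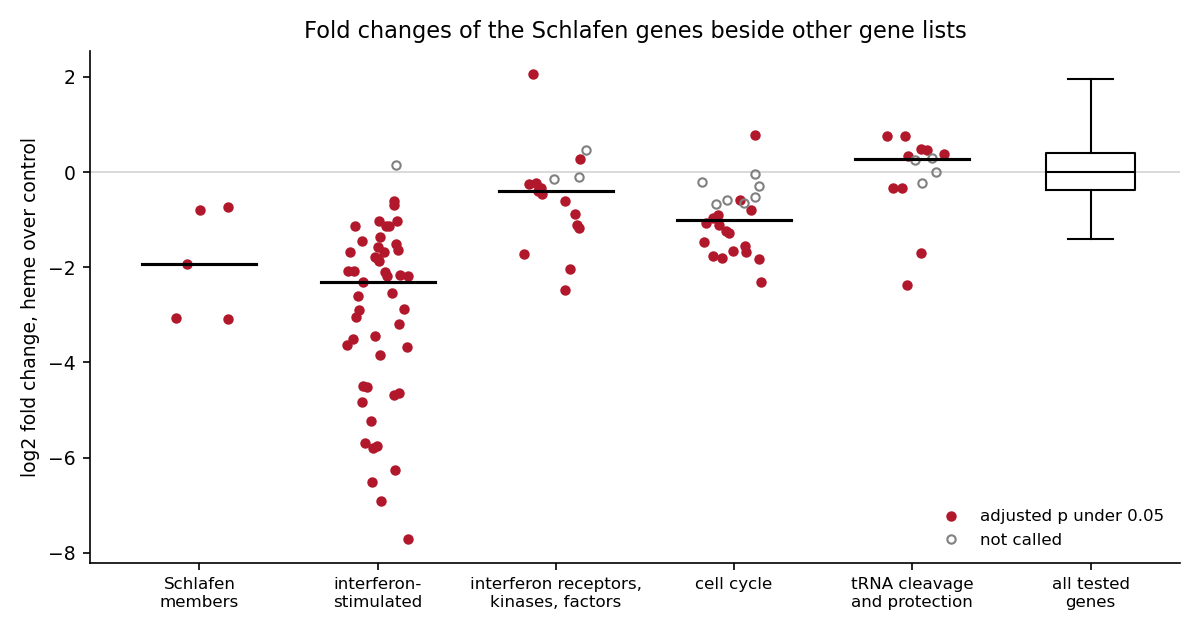
Log2 fold change (heme over control) of the tested genes of each list, with black lines for medians, beside a box plot of all 12433 tested genes (box for quartiles, whiskers from the 5th to the 95th percentile). The 5 Schlafen genes lie between -3.09 and -0.73 and all are filled, that is called; the median of the 49 interferon-stimulated genes is -2.31.

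The transcription factors through which interferon acts were lower with heme as well. Of 18 genes of interferon receptors, kinases and transcription factors, 17 could be tested, with a median log2 fold change of -0.40. Of these, 12 were called lower (70.6%, against 30.8% of all tested genes) and 2 higher (against 31.7%). Stat2 and Irf9 encode parts of the factor ISGF3, which binds the ISRE. Stat2 averaged 18.4 ± 1.5 CPM in heme-treated BMDMs and 102 ± 23.4 CPM in control BMDMs (SD, n = 3; log2 fold change -2.47, adjusted p = 9.29e-07, edgeR). Irf9 averaged 12.8 ± 0.394 CPM in heme-treated BMDMs and 52.2 ± 4.09 CPM in control BMDMs (SD, n = 3; log2 fold change -2.03, adjusted p = 5.61e-08, edgeR). Irf9 overlaps Rnf31 on the same strand. The groups did not overlap for either gene.

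The receptor chain gene Ifnar1 had 111, 141 and 119 CPM in the heme libraries and 145, 143 and 147 CPM in the control libraries. Its log2 fold change was -0.23 (adjusted p = 0.0442, edgeR). The call was lost with the replicate number as a block (adjusted p = 0.0546, edgeR) and without heme library 1, heme library 3 or control library 3 (adjusted p = 0.174, 0.149 and 0.0992, edgeR). Socs3, a feedback inhibitor of cytokine signaling, rose (log2 fold change 2.06, adjusted p = 0.000303, edgeR). The kinase gene Jak1 had a log2 fold change of 0.27, which did not pass if libraries were scaled by size alone (0.05, adjusted p = 0.555, edgeR). Ifnb1, the interferon β gene, had 0 counts in every library, which allows up to 0.119 CPM in the shallowest one.

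Genes of transfer RNA cleavage and protection, a process in which Schlafen proteins act, went both ways, with a median log2 fold change of 0.28. Of 14 tested, 4 were lower (28.6%, against 30.8% of all tested genes) and 6 higher (against 31.7%). The share called lower was thus close to that of all tested genes. Scaled by library size alone, 6 were lower and 2 higher. Ang, which encodes the transfer RNA nuclease angiogenin, had 3.87, 3.79 and 3.89 CPM in the heme libraries and 21.5, 19.0 and 19.1 CPM in the control libraries (log2 fold change -2.37, adjusted p = 8.79e-08, edgeR). The position of Ang overlaps Rnase4 on the same strand, whose reads may be shared with it. Rnh1, the inhibitor of angiogenin, and Nsun2, a transfer RNA methyltransferase gene, rose by a log2 fold change of 0.76 each (adjusted p = 2.34e-05 and 0.00016, edgeR). Of 24 cell cycle genes, 16 were lower (66.7%, against 30.8% of all tested genes) and 1 was higher (against 31.7%), with a median of -1.01. Among them were Ccnb2 (-2.31), Top2a (-1.82), Aurkb (-1.81) and Cdc20 (-1.77), genes of mitosis, while Pcna, the gene of the replication clamp, rose (0.77).

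Among all tested genes outside the family, Xaf1 was closest in pattern to both Slfn5 and Slfn8. Likeness was measured as the root mean square distance between mean-centred log2 CPM over the 6 libraries, as a description. Xaf1, an apoptosis-related ISG, stood at a distance of 0.085 from Slfn5 and 0.096 from Slfn8. Parp14, an ADP-ribosyltransferase gene and ISG, stood at 0.13 and 0.14. Slfn5 and Slfn8 were 0.11 apart. The T cell receptor segment Trav13-4-dv7 was also near both (0.18 and 0.13), but it had no count in heme libraries and averaged 0.412 CPM in controls. The nearest genes to Slfn2 were Ms4a6c (0.041), Sash1 (0.047) and Bcl9l (0.074), and those to Slfn3 were Dck (0.13), Acaca (0.14) and Prim1 (0.15). Those to Slfn9 were Psd3 (0.14), Mrvi1 (0.15) and Kif18b (0.16). None of these 9 is on the ISG list. Mrvi1 was low in both groups, with means of 0.147 CPM in heme libraries and 0.761 CPM in controls. With 6 libraries in groups of 3, a small distance rests mostly on a like difference between the groups.

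Markers of cell types moved in the same libraries, and 8 lists were examined. Over all tested genes, 30.8% were called lower and 31.7% higher. The 10 macrophage markers summed to 36628 to 39903 CPM in heme libraries and 32281 to 38122 CPM in control libraries, with 7 called lower and 1 higher. Without Lyz2, the lysozyme gene, they summed to 5632 to 5962 CPM with heme and 7110 to 7872 CPM in controls. The 8 monocyte markers summed to 338 to 411 CPM with heme and 85.6 to 166 CPM in controls (6 higher, 1 lower). Without F13a1, the most abundant of them over all libraries, they summed to 234 to 257 CPM with heme and 35.6 to 39.7 CPM in controls. The 12 neutrophil markers summed to 1376 to 1523 CPM with heme and 86.5 to 153 CPM in controls, but most of the heme sum came from the collagenase gene Mmp8. Without Mmp8 they summed to 123 to 165 CPM with heme and 57.8 to 117 CPM in controls. Of 9 tested, 8 were higher, and Csf3r, the receptor gene for granulocyte colony-stimulating factor, was lower (log2 fold change -1.08). Csf3r had 50.8, 106 and 68.9 CPM in the control libraries, most of their sum without Mmp8. In the heme libraries it had 32.9, 41.8 and 31.9 CPM.

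In the lists with a lower sum in heme libraries, most of the difference came from 1 gene each. The 11 T and NK cell markers summed to 1.42 to 2.09 CPM with heme and 4.50 to 7.76 CPM in controls. Without Cd4 they summed to 1.15 to 1.39 CPM with heme and 0.336 to 0.967 CPM in controls. The median log2 fold change of the 3 tested, Cd4 among them, was 0.85. Cd4 was called lower (log2 fold change -3.48). Lck (0.85) and Klrb1c (1.31) were not called (adjusted p = 0.0867 and 0.0862, edgeR). The T cell genes Cd3e, Cd3g and Cd8a had no count in any library. The 8 dendritic cell markers summed to 68.3 to 76.9 CPM with heme and 156 to 192 CPM in controls. Without Bst2, which is itself an ISG, they summed to 33.4 to 41.6 CPM with heme and 15.3 to 17.3 CPM in controls, and Itgax, an integrin gene, was higher (log2 fold change 1.30). The 7 B cell markers summed to 41.6 to 56.6 CPM with heme and 228 to 263 CPM in controls. Without Ighm they summed to 0.477 to 0.977 CPM with heme and 1.65 to 2.04 CPM in controls. The 9 megakaryocyte and erythroid markers summed to 177 to 221 CPM with heme and 26.8 to 43.8 CPM in controls (2 higher, 2 lower), nearly all from the platelet factor gene Pf4. The 6 stromal markers summed to 0.0790 to 0.404 CPM with heme and 0.0553 to 0.328 CPM in controls. The part of these shifts in the Schlafen levels was not tested.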

How the data were processed

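Bulk RNA-Seq of BMDM cultures was analysed, 3 heme and 3 control libraries. For each library, the deposited values are raw read counts of Ensembl genes, which the authors made with STAR 2.7.0 and featureCounts on GRCm38.p5 per the labels, from a stranded TruSeq kit and RNA integrity numbers above 9. The sources used here do not give the strand setting, the annotation release or the treatment of multi-mapping reads. Groups came from the sample titles. Symbols, positions and exon lengths came from GENCODE M21 on GRCm38, and 36 of 25700 identifiers had no symbol. Depth was 27201038 to 32994595 counts per library.

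Counts were analysed in R 4.3.3 with edgeR 4.0.16: filterByExpr (minimum count 10), TMM, glmQLFit and glmQLFTest on condition alone, and Benjamini-Hochberg adjustment over all tested genes. Standard errors came from the same test. Whether equal replicate numbers mark the same mouse is not stated, and residuals of same-numbered libraries were not alike (correlation -0.0998, -0.142 and -0.0683), and the fit had no block. Alternatives were other scalings, DESeq2 1.42.0, limma-voom (limma 3.58.1), other filters, the replicate number as a block and leaving out each library. Transcripts were cut into 50-base and 100-base stretches to find those shared between genes, and coding sequences were aligned with Biopython 1.88. Promoter windows came from RefSeq tables on GRCm38.p6. The test was also run on simulated counts, with a spread estimated from these data, and its outcome is not reported here.

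The members and gene lists were chosen with earlier results of these data known. Named genes were all members, the other Schlafen genes, the called genes that changed most in each pathway list (at most 4, plus at most 2 that went the other way), Stat2, Irf9 and Ifnar1, the 3 genes closest in pattern to each called member (prior count 2), and protein-coding genes within 100 kb of the cluster. Pnpt1, Ifnb1 and the cell type markers named are outside that rule and were picked with their values in view, as were the promoter motifs. Cell type lists served as a check. Some genes that the rule names are not reported here.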

Additional observations from a re-analysis of the deposited data

How the results depend on the processing

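The 5 tested members were called lower under every other scaling, filter and tool that was tried. With the replicate number as a block, 5 members were lower as well, and the block ended the calls of Ifnar1 and Rad51d (adjusted p = 0.0546 and 0.0655, edgeR) and of no other named gene. Leaving out 1 library gave 4 to 7 members called lower, since Slfn3 lost its call in 3 of these fits and Slfn1 or Slfn4 passed the filter in some. With no filter on low counts, 7 members were lower, Slfn1 with a log2 fold change of -4.27 (adjusted p = 0.000345, edgeR) and Slfn4 with one of -2.23 (0.00546). No member was called higher in any fit. Scaled by library size alone, 2580 genes were higher and 5814 lower, 1 gene of interferon receptors, kinases and transcription factors was higher, and 2 genes of transfer RNA cleavage and protection were higher. ISGs called lower numbered 47 to 49 over all settings. Depth limits Slfn1 and Slfn4, whose heme libraries held at most 4 counts, and 3 cultures a group limit every exact test to p = 0.1.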
